A study of Homo sapiens with 12 samples.

Results

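The genes described here encode the ubiquitin-conjugating enzymes of the UBE2 family, the ubiquitin-specific proteases of the USP family and 4 ligases of the HERC family. They were chosen by name alone, as symbols that start with UBE2 and a letter, symbols made of USP and a number with or without a letter, and HERC symbols other than the 2 left out, HERC5 and HERC6. The rule found 101 of the 27827 gene symbols in the deposited tables, of which 45 were UBE2 symbols, 52 USP symbols and 4 HERC symbols. All 101 stood in the table of the antagonist experiment, and 2, USP7 and USP39, stood in the table of the agonist experiment. RNA was sequenced from U937, a human myeloid leukaemia line with monocytic features. Per the labels, all cells were pretreated with interferon gamma at 50 ng/mL. They then received for 72 hours an antibody against LILRB3, an inhibitory receptor of myeloid cells, or nonspecific IgG. The groups were the LILRB3 antagonist with its own IgG group (set 1) and the LILRB3 agonist with its own IgG group (set 2), with 3 libraries in each of the 4 groups. The antibody concentration is given as 5 mg/mL, a unit kept here as the labels write it.

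Ubiquitin is attached to proteins by a relay in which an E1 enzyme activates it, an E2 enzyme carries it, and an E3 ligase places it on the substrate. UBE2 proteins are the E2 carriers, small enzymes built around a single catalytic fold, and a few of them carry relatives of ubiquitin such as NEDD8 or ISG15 instead. USP proteins are the largest family of deubiquitinases and cut ubiquitin off again, while HERC proteins are ligases with a HECT domain, 2 of which are among the longest proteins of the cell. In monocytic cells these enzymes take part in inflammatory signalling, antigen processing and the response to interferon.

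The set 1 libraries held between 17053190 and 17790608 counts in antagonist libraries and between 17155518 and 18833088 counts in IgG libraries. The set 2 table listed 904 genes only, with 2764479 to 3522203 counts per library. IgG library 1 of set 1 stood apart from its group: over genes, a chi-square per degree of freedom was 11.0 and 19.9 between it and the other two, against 4.54 between those. Agonist library 1 stood apart likewise, at 25.1 and 26.7 against 3.75. Libraries are numbered by column order in the tables. The labels do not say whether they were separate cultures, so a p-value here covers the spread of these libraries, possibly technical, and no more. Of 11 myeloid markers, 10 passed the filter on low counts. The granule and leukocyte genes CTSG, LYZ and PTPRC were lower with the antagonist, and the other 7 did not pass; 5 of the 10 log2 fold changes lay above zero and 5 below (median -0.03). The summed markers, of which CTSG alone averaged 2606 ± 62 CPM with the antagonist and 3329 ± 38 CPM with IgG (SD, n = 3 each, TMM-scaled), came to 4064 to 4160 CPM (counts per 1e6 library counts, here without TMM scaling) in antagonist libraries and 4679 to 4727 CPM in IgG libraries. The 12 markers of T and NK, B, erythroid, epithelial and fibroblast cells summed to 16.7 to 19.96 CPM in antagonist libraries and 16.99 to 19.1 CPM in IgG libraries, with MS4A1, HBB and EPCAM among those at 0 counts throughout. Whether the lower sum of myeloid markers has a part in the changes below was not tested, and in bulk RNA fewer cells of a type and less RNA per cell cannot be told apart.

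With the antagonist, more UBE2 genes fell than rose relative to IgG, and most USP and HERC genes did not pass the test. Of 35 UBE2 symbols with enough counts to test, 16 fell, 4 rose and 15 did not pass an adjusted p of 0.05. Of 52 tested USP and HERC genes, 7 fell, 6 rose and 39 did not pass. Among all 13778 genes tested, 36.1% passed, 15.6% higher and 20.5% lower. The median log2 fold change was -0.22 for UBE2 (from -0.52 to 1.15) and 0.05 for USP and HERC (from -0.46 to 0.67), beside -0.01 for all tested genes. Groups did not overlap for 24 UBE2 symbols and 16 USP and HERC genes, where 49.0% of all tested genes did not overlap. The UBE2 count of falls was 10 without antagonist library 1, and the USP and HERC count was 4 without antagonist library 1 or IgG library 2 and 3 without antagonist library 3. Falls over all tested genes likewise went from 2831 to 1769 without antagonist library 1 and to 1771 without antagonist library 3. Scaling mattered as well, since with library totals in place of TMM the share of rises among all called genes was 65.4%, against 43.1%. Under library totals 4618 of all 13778 tested genes passed, 1597 as lower. There 11 of the 35 UBE2 symbols fell and 4 rose, and 1 of the 52 USP and HERC genes fell and 9 rose. Falls that then missed the threshold included those of UBE2D1, UBE2G1, UBE2Q1, UBE2T and every USP gene but USP1. The sizes were modest, and the 16 UBE2 genes that fell lay between 0.698 and 0.860 times their IgG level.

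**Figure D1:**
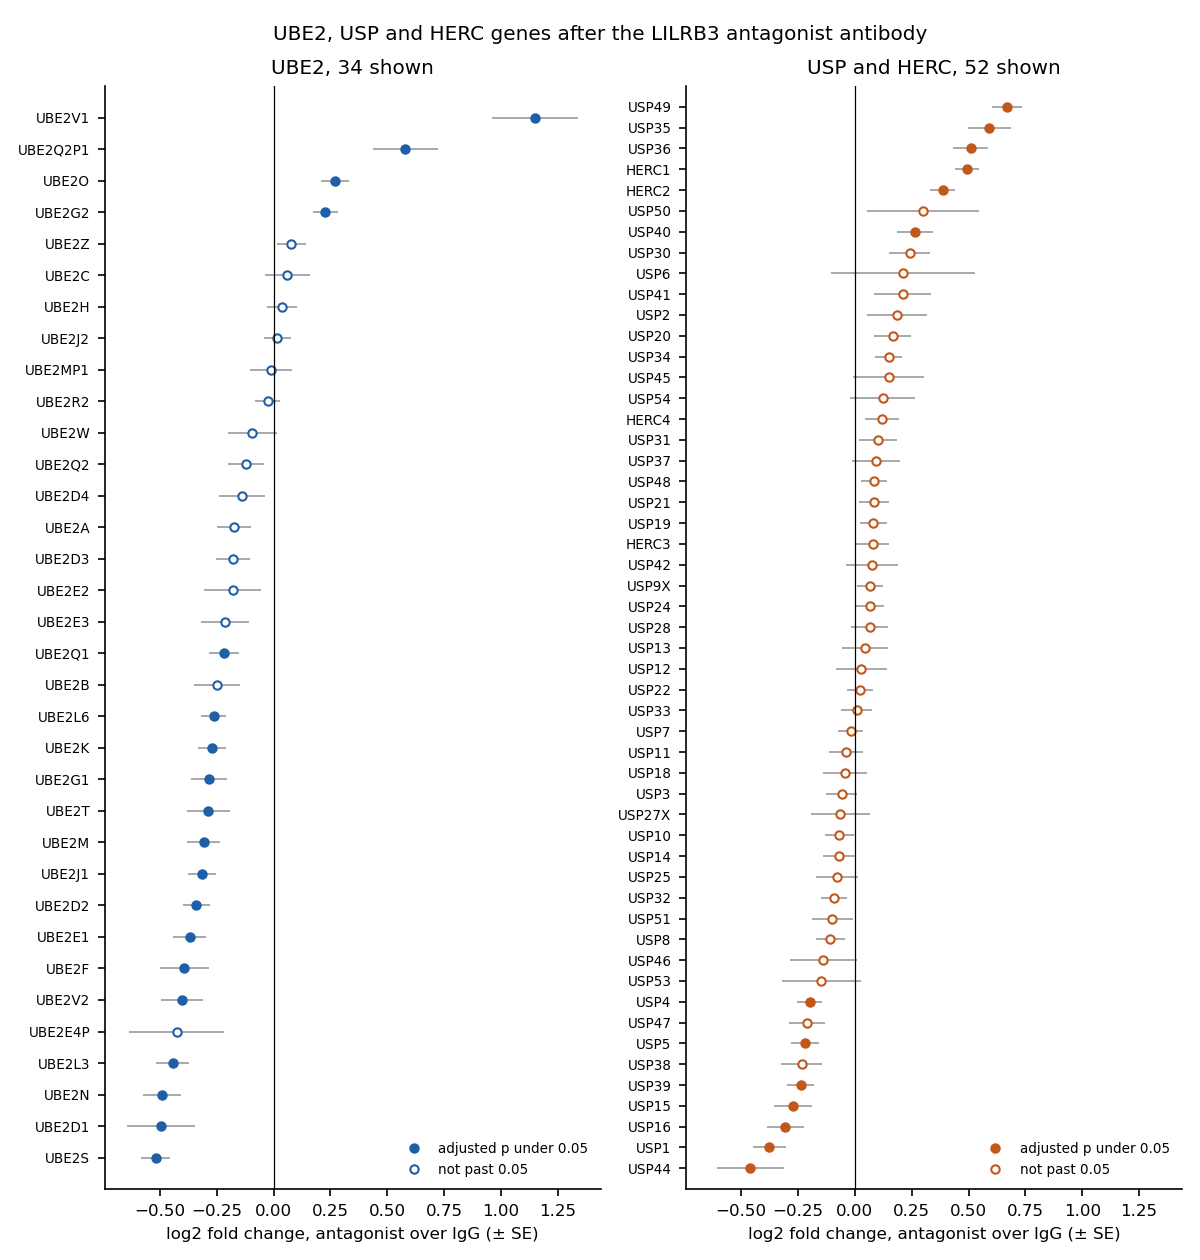
Log2 fold change, antagonist over IgG, of the tested genes, with standard errors as lines, for 34 of the 35 UBE2 symbols (left) and 52 USP and HERC genes (right). Filled points passed an adjusted p of 0.05 in edgeR's test; most filled UBE2 points lie left of zero, down to -0.52, and the filled USP and HERC points lie on both sides.

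The 14 members below the filter were 10 UBE2 symbols and 4 USP genes. Most of the UBE2 symbols among them were antisense, pseudogene or retrocopy symbols, and UBE2F-SCLY, UBE2QL1, UBE2U, USP26 and USP29 had no count in any library. USP43 had 0 counts over the antagonist libraries and 6 over the IgG libraries. Among tested genes, levels per kilobase of the longest transcript were highest for UBE2L6, at 79.7 CPM per kilobase with the antagonist and 95.7 with IgG, and, among USP and HERC genes with the antagonist, for USP20, at 51.2 with the antagonist and 45.6 with IgG. With IgG, USP4 was the highest of these, at 40.8 with the antagonist and 46.8 with IgG. The lowest were UBE2V1, at 2.60 with the antagonist and 1.16 with IgG, and USP6, at 0.142 and 0.123 in the same order of groups.

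The promoter windows of 4 genes are shown because they stand for the directions found: UBE2S, the UBE2 gene with the largest fall, UBE2G1, which fell, its relative UBE2G2, which rose, and HERC1, the member with the longest coding sequence, which rose. Each runs 5′ to 3′ from 250 bases before to 50 bases after the start of the gene, from RefSeq on GRCh38.p14. The windows are chr19:55407739-55408038, chr17:4366626-4366925, chr21:44801771-44802070 and chr15:63833899-63834198, all on the minus strand, and capitals mark GGGCGG, the core of a GC box, or its reverse complement CCGCCC.
UBE2S: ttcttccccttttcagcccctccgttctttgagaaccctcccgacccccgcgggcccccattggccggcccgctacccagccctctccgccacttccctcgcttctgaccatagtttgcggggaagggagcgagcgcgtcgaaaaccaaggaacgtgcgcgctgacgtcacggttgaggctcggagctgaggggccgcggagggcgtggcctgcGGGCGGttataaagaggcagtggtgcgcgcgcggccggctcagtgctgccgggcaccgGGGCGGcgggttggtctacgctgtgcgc
UBE2G1: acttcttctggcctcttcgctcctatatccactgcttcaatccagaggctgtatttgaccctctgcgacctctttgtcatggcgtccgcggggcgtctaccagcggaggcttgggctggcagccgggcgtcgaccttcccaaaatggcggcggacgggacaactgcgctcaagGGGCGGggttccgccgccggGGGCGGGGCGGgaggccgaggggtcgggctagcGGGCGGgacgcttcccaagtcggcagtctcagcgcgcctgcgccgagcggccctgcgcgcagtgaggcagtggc
UBE2G2: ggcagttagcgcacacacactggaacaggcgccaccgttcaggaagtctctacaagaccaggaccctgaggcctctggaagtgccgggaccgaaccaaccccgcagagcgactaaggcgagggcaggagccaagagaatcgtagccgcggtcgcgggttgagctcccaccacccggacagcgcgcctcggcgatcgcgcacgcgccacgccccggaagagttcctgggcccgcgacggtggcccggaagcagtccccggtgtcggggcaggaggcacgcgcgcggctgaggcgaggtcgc
HERC1: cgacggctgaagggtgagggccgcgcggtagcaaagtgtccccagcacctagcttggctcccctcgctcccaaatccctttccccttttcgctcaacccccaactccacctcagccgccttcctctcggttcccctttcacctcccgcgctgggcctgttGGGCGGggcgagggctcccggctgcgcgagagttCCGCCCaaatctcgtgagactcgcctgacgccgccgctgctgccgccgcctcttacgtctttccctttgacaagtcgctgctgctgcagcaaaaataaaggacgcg
The windows are rich in G and C, with 69% for UBE2S and UBE2G1, 69.7% for UBE2G2 and 64.7% for HERC1. GGGCGG on either strand was found in 12 of 13 UBE2 genes that fell and had a window and 2 of 3 that rose, in 5 of 6 USP and HERC genes that fell and 6 of 6 that rose, and in 34 of 39 members that passed in neither direction. It was found in 75.1% of all tested genes with a window and in 48.3% of all genes with one. Genes that fell and genes that rose thus both carried it, and a match describes the letters only.

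The E2 enzymes of cell division and DNA repair included the largest fall. UBE2S (ENSG00000108106, chr19:55399745-55407777), which lengthens ubiquitin chains on substrates of the anaphase-promoting complex (APC/C), had 128, 118 and 131 CPM in antagonist libraries and 184, 185 and 170 CPM in IgG libraries. The groups were well separated, and the log2 fold change was -0.52 ± 0.06 (SE, adjusted p = 0.000216). A share of 17.5% of its 50-base windows is also found in other genes, UBE2SP1 foremost. UBE2C, which places the first ubiquitins for the same complex, had 19.8, 20.5 and 19.8 CPM in antagonist libraries and 16.8, 19.3 and 21.6 CPM in IgG libraries. Those groups overlapped (0.06 ± 0.10, adjusted p = 0.667). UBE2T, the E2 of the Fanconi anaemia pathway, had -0.29 ± 0.09 (adjusted p = 0.0315) and missed the threshold without any one of 5 libraries, with values from -0.33 without antagonist library 3 to -0.19 without IgG library 1. UBE2A and UBE2B, the RAD6 homologues that mark PCNA and histones, did not pass, at -0.17 ± 0.07 and -0.25 ± 0.10. UBE2A passed without IgG library 2 (-0.23), and UBE2B without IgG library 3 (-0.30) and with no filter on low counts (-0.26).

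Among the E2 enzymes that work with many ligases or build chains, 8 of 19 fell and 2 rose. Those are 42.1% and 10.5%, beside 20.5% and 15.6% of all tested genes. UBE2N (chr12:93405673-93442262), the E2 that builds signalling chains for NF-kB activation and damage tolerance, had 33.7, 32.6 and 33.5 CPM in antagonist libraries and 51.1, 47.9 and 41.2 CPM in IgG libraries. Its antagonist libraries lay close together and the IgG libraries spread above them (-0.49 ± 0.08, adjusted p = 0.000985). A gene on the other strand covers 39.5% of its exon bases, and reads of such pairs cannot be told apart without strand. UBE2N builds these chains with an inactive E2-like partner, UBE2V1 or UBE2V2, and the partners were measured in opposite directions. UBE2V2 had 54.8, 64 and 51.1 CPM in antagonist libraries and 81.3, 66.6 and 76.8 CPM in IgG libraries, with antagonist library 2 just below IgG library 2 (-0.40 ± 0.09, adjusted p = 0.00556). UBE2V1 had 5.08, 7.11 and 7.55 CPM in antagonist libraries and 3.44, 2.79 and 2.63 CPM in IgG libraries (1.15 ± 0.19, adjusted p = 0.000909). Its level is uncertain, since 81.2% of its 50-base windows are also found in other transcripts, the readthrough TMEM189-UBE2V1 above all.

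UBE2L3, which hands ubiquitin to HECT and RBR ligases such as parkin, had 60.1, 63.8 and 63.4 CPM in antagonist libraries and 93.2, 77.5 and 84.0 CPM in IgG libraries. IgG library 1 was highest, and the groups did not overlap (-0.44 ± 0.07, adjusted p = 0.000874). The UBE2D genes encode near-identical enzymes that serve most RING ligases. UBE2D2 had 86.5, 84.0 and 88.8 CPM in antagonist libraries and 104, 114 and 110 CPM in IgG libraries (-0.34 ± 0.06, adjusted p = 0.00122). UBE2D1, at 7.77, 9.37 and 6.83 CPM in antagonist libraries and 13.1, 11.0 and 9.61 CPM in IgG libraries, had -0.50 ± 0.15 (adjusted p = 0.0208), with antagonist library 2 close to IgG library 3. UBE2D1 missed the threshold without antagonist library 1 (-0.48) or 3 (-0.39) and without IgG library 1 (-0.34) or 2 (-0.50). UBE2D3 and UBE2D4 did not pass (-0.18 ± 0.08 and -0.14 ± 0.10), and UBE2D3 passed without IgG library 3 (-0.25).

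Within the UBE2E genes, relatives with a longer N-terminal part, UBE2E1 fell (-0.37 ± 0.07, adjusted p = 0.00258) while UBE2E2 (-0.18 ± 0.12) and UBE2E3 (-0.21 ± 0.11) did not pass. UBE2K, which builds degradation-type chains, fell by 0.27 on the log2 scale (adjusted p = 0.00555), and UBE2Q1 fell by 0.22 (adjusted p = 0.0189). UBE2Q1 missed the threshold without antagonist library 1 (-0.21) or 3 (-0.19) or IgG library 3 (-0.19). UBE2R2, a chain builder for cullin ligases, UBE2H, the partner of the CTLH ligase, UBE2Z, which is charged by the E1 enzyme UBA6, UBE2W, which modifies N-termini, and UBE2Q2 had values from -0.12 to 0.08 and did not pass. UBE2O, a hybrid of E2 and E3 that is far longer than the other UBE2 proteins, had 74.3, 75.8 and 77.2 CPM in antagonist libraries and 59.2, 64.6 and 65.0 CPM in IgG libraries. All antagonist libraries lay above all IgG libraries (0.27 ± 0.06, adjusted p = 0.00574).

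Of the 4 E2 genes listed for the endoplasmic reticulum (ER), 2 fell, 1 rose and 1 did not pass. The falls are 50% and the rises 25%, beside 20.5% and 15.6% of all tested genes. UBE2J1, a membrane-anchored E2 of ER-associated degradation, had 103, 109 and 102 CPM in antagonist libraries and 137, 125 and 128 CPM in IgG libraries (-0.31 ± 0.06, adjusted p = 0.00197). Its relative UBE2J2, anchored in the same membrane, had 99.0, 91.2 and 94.1 CPM in antagonist libraries and 92.8, 96.6 and 91.8 CPM in IgG libraries, with overlapping groups (0.02 ± 0.06, adjusted p = 0.861). UBE2G2, which works with the ER ligases gp78 and HRD1, had 113, 114 and 111 CPM in antagonist libraries and 97.5, 96.3 and 94.6 CPM in IgG libraries. Both groups were tight and did not overlap (0.23 ± 0.05, adjusted p = 0.00688). UBE2G1 had 42.3, 50.3 and 47.8 CPM in antagonist libraries and 61.0, 55.5 and 54.4 CPM in IgG libraries (-0.28 ± 0.08, adjusted p = 0.0143), and missed the threshold without antagonist library 1 (-0.22). The ratio of UBE2G2 to UBE2G1 within a library was 2.68, 2.26 and 2.32 with the antagonist and 1.60, 1.74 and 1.74 with IgG. This pair was chosen after its values were seen, and the ratio is given as a description.

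The E2 enzymes of ISG15 and NEDD8, relatives of ubiquitin, fell, as did 20.5% of all tested genes. UBE2L6, the E2 of the interferon-induced modifier ISG15, had 122, 128 and 126 CPM in antagonist libraries and 145, 154 and 152 CPM in IgG libraries (-0.26 ± 0.06, adjusted p = 0.00338). Of the E2 enzymes of NEDD8, the activator of cullin ligases, UBE2M had -0.31 ± 0.07 (adjusted p = 0.00652) and UBE2F -0.39 ± 0.11 (adjusted p = 0.0142). UBE2F shares 25.5% of its windows with other transcripts, mainly UBE2F-SCLY, and missed the threshold without antagonist library 1 (-0.37). In these 3 genes the groups did not overlap, nor did they in 49.0% of all tested genes. USP18, the protease that removes ISG15, did not pass (-0.04 ± 0.10), and 23.4% of its windows are shared, mostly with USP41.

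Of 12 USP genes that act on chromatin or genome maintenance, 3 fell and 1 rose. Those are 25% and 8.33%, near the 20.5% and 15.6% of all tested genes. USP49, a histone H2B deubiquitinase (chr6:41789896-41895361), had 59.4, 61.8 and 63.4 CPM in antagonist libraries and 37.6, 38.2 and 40.3 CPM in IgG libraries. It was the largest rise among USP and HERC genes, with widely separated groups (0.67 ± 0.07, adjusted p = 9.83e-05). USP1, which reverses the UBE2T and RAD6 marks on FANCD2 and PCNA, had 59.5, 59.6 and 53.8 CPM in antagonist libraries and 80.7, 72.7 and 70.8 CPM in IgG libraries (-0.38 ± 0.07, adjusted p = 0.00189). USP16, a histone H2A deubiquitinase, had -0.31 ± 0.08 (adjusted p = 0.0106) and missed the threshold without antagonist library 3 (-0.27). USP44, which acts on H2B and the spindle checkpoint, had 9.54, 10.6 and 7.44 CPM in antagonist libraries and 13.8, 10.6 and 13.7 CPM in IgG libraries. Its groups overlapped (-0.46 ± 0.15, adjusted p = 0.0287), and it missed the threshold without antagonist library 1 (-0.49) or 3 (-0.33) or IgG library 1 (-0.37) or 3 (-0.40). USP22 of the SAGA complex (0.02 ± 0.06), USP11 (-0.04 ± 0.07) and USP28 (0.06 ± 0.08) did not pass.

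All 3 USP genes tied to splicing were lower (100%, beside 20.5% of all tested genes). USP39, a protein of the spliceosome that lacks protease activity, had 59.3, 57.9 and 60.3 CPM in antagonist libraries and 69.6, 69.4 and 70.5 CPM in IgG libraries, with little spread in either group (-0.24 ± 0.06, adjusted p = 0.00760). USP4, which removes ubiquitin from spliceosome proteins, had 144, 146 and 144 CPM in antagonist libraries and 162, 170 and 165 CPM in IgG libraries (-0.20 ± 0.05, adjusted p = 0.0135). Its paralogue USP15 had 27.0, 31.6 and 28.2 CPM in antagonist libraries and 36.8, 35.2 and 32.6 CPM in IgG libraries (-0.27 ± 0.08, adjusted p = 0.0229). The groups of all 3 genes were separate, by little in USP15, as were those of 49.0% of all tested genes. DESeq2's Wald test called 2 of the 3 lower and missed USP15 (adjusted p = 0.0505). With library totals none of the 3 passed edgeR's test (-0.16 for USP39, -0.12 for USP4 and -0.19 for USP15). USP4 missed the threshold without antagonist library 1 (-0.20) or 3 (-0.20) or IgG library 2 (-0.16). USP15 did so without antagonist library 1 (-0.23) or 3 (-0.25) or IgG library 1 (-0.20) or 2 (-0.25).

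Of 9 USP genes of free chains, the proteasome and organelles, 1 fell (11.1%, beside 20.5% of all tested genes). USP5, which takes free ubiquitin chains apart, had 102, 97.3 and 106 CPM in antagonist libraries and 111, 121 and 123 CPM in IgG libraries (-0.22 ± 0.06, adjusted p = 0.0157). It missed the threshold without antagonist library 1 (-0.22) or 2 (-0.19) or IgG library 2 (-0.19) or 3 (-0.19). USP14, the deubiquitinase bound to the proteasome (-0.07 ± 0.07), USP8 of endosomes (-0.11 ± 0.07), USP13 (0.04 ± 0.10), USP32 (-0.09 ± 0.06), USP33 (0.01 ± 0.07) and the ER-anchored USP19 (0.08 ± 0.06) did not pass. USP30 of the mitochondrial outer membrane had 18.4, 18.4 and 17 CPM in antagonist libraries and 14.5, 15.2 and 15.9 CPM in IgG libraries. Its groups did not overlap, but the adjusted p was 0.0517 (0.24 ± 0.09). USP20, with 226, 222 and 237 CPM in antagonist libraries and 174, 214 and 222 CPM in IgG libraries, did not pass (0.17 ± 0.08) and did so without IgG library 3 (0.24).

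None of a further 5 listed USP genes, USP9X, USP24, USP34, USP47 and USP48, passed edgeR's test. USP9X, a regulator of protein stability and trafficking, had 187, 181 and 175 CPM in antagonist libraries and 179, 175 and 165 CPM in IgG libraries (0.07 ± 0.06). USP34, a regulator of Wnt signalling, had 91.0, 97.4 and 91.3 CPM in antagonist libraries and 86.2, 82.4 and 83.6 CPM in IgG libraries. Its groups did not overlap, but the adjusted p was 0.0646 (0.15 ± 0.06), and it passed without IgG library 1 (0.19). USP24 (0.07 ± 0.06) and USP48 (0.08 ± 0.06) did not pass, nor did USP47, a protease in base excision repair, at -0.21 ± 0.08. USP48 passed without IgG library 1 (0.15) and USP47 without antagonist library 1 (-0.30). At an unadjusted p of 0.05, 1 of the 5 was higher and 1 lower, and DESeq2 called 0 in either direction. USP10 (-0.07 ± 0.06) and USP25 (-0.08 ± 0.09) did not pass either.

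HERC1 and HERC2, the giant members of the family, rose, and the short HERC3 and HERC4 did not pass. HERC1 (ENSG00000103657, chr15:63608618-63833942) had 229, 233 and 235 CPM in antagonist libraries and 166, 164 and 165 CPM in IgG libraries. The libraries within each group were nearly equal, and the log2 fold change was 0.49 ± 0.05 (adjusted p = 0.000144). HERC2 (chr15:28111040-28322152), which organises ubiquitin signalling at DNA breaks, had 283, 272 and 277 CPM in antagonist libraries and 206, 219 and 212 CPM in IgG libraries (0.39 ± 0.06, adjusted p = 0.000466). A share of 23.2% of its windows is found in other genes, chiefly the pseudogene HERC2P9. HERC3 (0.08 ± 0.07) and HERC4 (0.12 ± 0.08) had a fold change above zero, and HERC4 passed without IgG library 1 (0.21).

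The other rises were USP36, USP35 and USP40. USP36, a deubiquitinase of the nucleolus, had 47.2, 43.2 and 47.4 CPM in antagonist libraries and 30.8, 34.9 and 31.2 CPM in IgG libraries (0.51 ± 0.08, adjusted p = 0.000536). USP35 had 21.4, 20.8 and 23.6 CPM in antagonist libraries and 13.4, 15.7 and 14.6 CPM in IgG libraries (0.59 ± 0.10, adjusted p = 0.000784). The groups of both were clearly apart. USP40 had 0.26 ± 0.08 (adjusted p = 0.0209) and missed the threshold without antagonist library 2 (0.23) or 3 (0.24) or IgG library 2 (0.27). UBE2Q2P1, a pseudogene, also rose (0.58 ± 0.14, adjusted p = 0.00780).

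**Figure D2:**
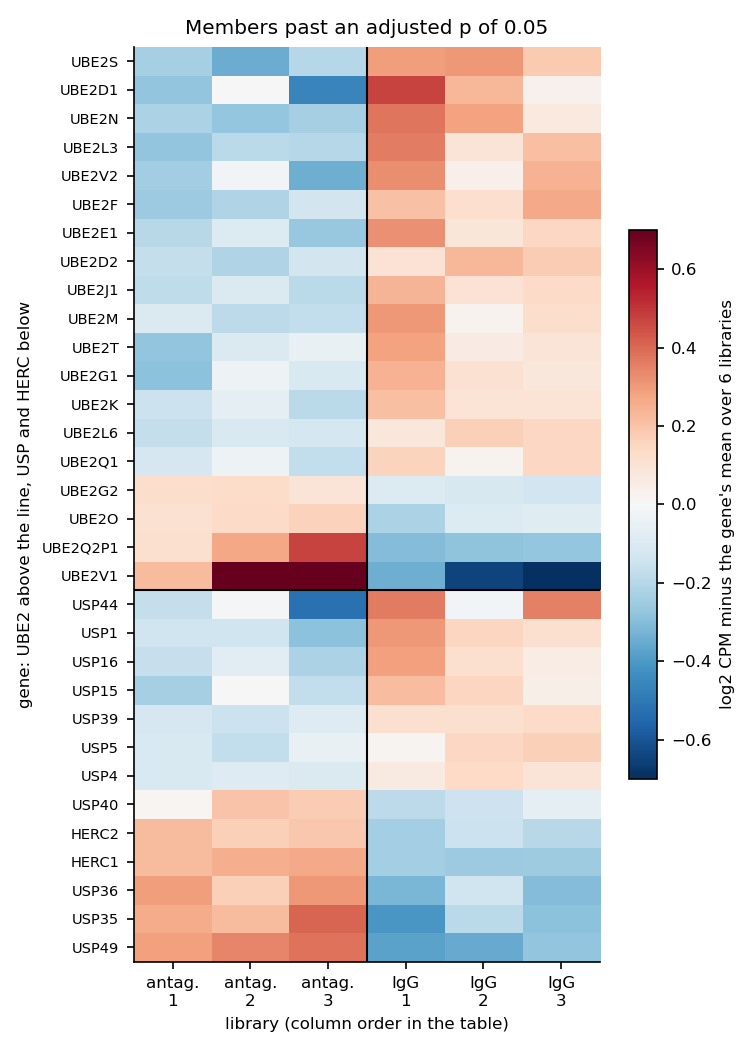
Log2 CPM of 32 of the 33 genes past an adjusted p of 0.05, minus each gene's mean over the 6 libraries of set 1, with the 3 antagonist libraries left of the 3 IgG libraries. Red is above and blue below the gene's mean, and the colours end at 0.7 either way; in most rows of UBE2 genes that fell, IgG library 1 is the reddest of the IgG libraries, for example UBE2D1 at 13.1 CPM.

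IgG library 1 was the farthest of its group from the antagonist libraries for 12 of the 16 UBE2 genes that fell and 2 of the 4 that rose, and for 4 of the 7 USP and HERC genes that fell and 5 of the 6 that rose. This library stood apart over all genes as well, and the same count was not made over all called genes. These counts are therefore not read as a trait of the members. Without that library the median of UBE2 was -0.15 and that of USP and HERC 0.07, and 14 UBE2 genes fell. Summed over the tested genes of each class, UBE2 transcripts made up 1994, 2053 and 2006 CPM in antagonist libraries and 2403, 2262 and 2250 CPM in IgG libraries. USP and HERC transcripts made up 3516, 3572 and 3526 CPM in antagonist libraries and 3361, 3422 and 3373 CPM in IgG libraries. The ratio of UBE2 genes (without pseudogenes) to USP and HERC genes, which does not depend on scaling between libraries, was 0.560, 0.567 and 0.561 with the antagonist and 0.707, 0.653 and 0.659 with IgG. The antagonist libraries were all lower than the IgG libraries, IgG library 1 highest.

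The classes differ in length. The 32 tested UBE2 genes with a coding sequence had a median coding length of 553.5 bases (from 441 to 3876), and the 52 USP and HERC genes one of 2913 bases (from 1029 to 14583). Fold changes of all tested protein-coding genes followed coding length: the median was -0.27 for coding sequences up to 600 bases, where 49.5% of genes fell, and 0.23 above 4800 bases, where 42.1% rose. These length classes were set after results were seen. The 21 UBE2 genes up to 600 bases had a median of -0.26 with 12 falls and 2 rises, close to all genes of that length. Above 600 and up to 1200 bases, the 9 UBE2 genes had a median of -0.18 with 3 falls, beside -0.13 and 31.4% falls for all genes.

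Of the USP and HERC genes, the 5 above 600 and up to 1200 bases had a median of 0.03, beside -0.13 for all genes of that length. The 12 above 1200 and up to 2400 bases had a median of -0.06, beside -0.01 for all. Above 2400 and up to 4800 bases, 28 of them had a median of 0.05 with 3 rises and 4 falls, beside a median of 0.11, 26.2% rises and 6.78% falls for all genes. Above 4800 bases, 2 of 7 rose, with a median of 0.12 beside 0.23 for all genes, and the 2 were HERC1 and HERC2. Across genes, Spearman's rho between the log2 fold change and coding length was 0.50 over both classes (n = 84), 0.20 within UBE2 (n = 32), 0.20 within USP and HERC (n = 52) and 0.39 over 12312 protein-coding genes. Within USP and HERC it was 0.42 with the GC content of the transcript. These genes share libraries and are not independent, and the values are descriptions.

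**Figure D3:**
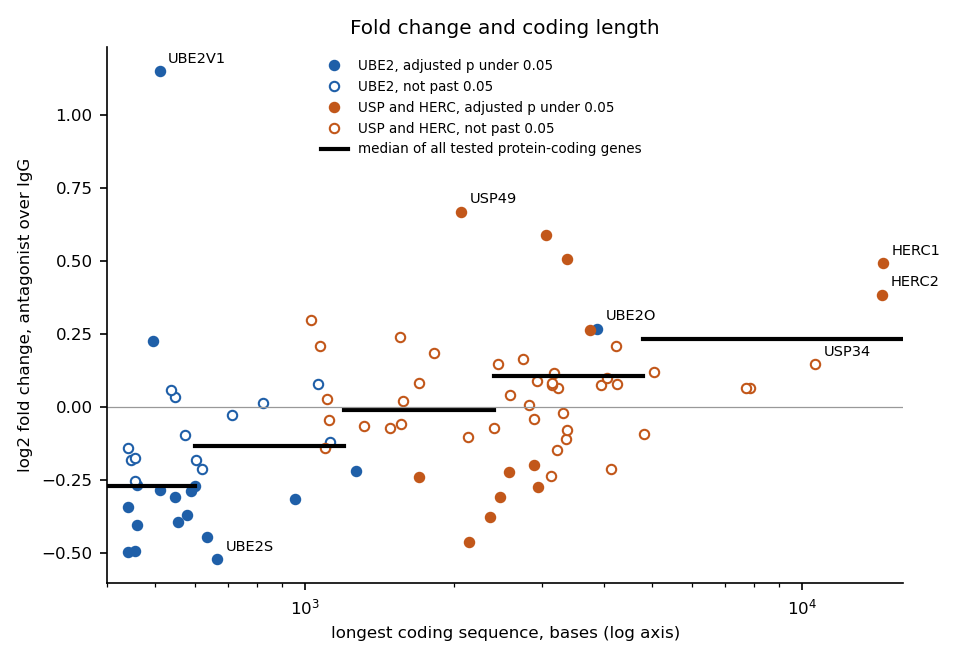
Log2 fold change, antagonist over IgG, against the longest coding sequence in bases on a log axis, for UBE2 genes (blue) and USP and HERC genes (orange), filled where the adjusted p was under 0.05. Black bars are medians of all tested protein-coding genes in 5 length classes, from -0.27 for the shortest to 0.23 for the longest; most UBE2 genes lie near the bar of their length.

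When trends of the fold change with coding length and GC content over all genes were removed within the same fit, a setting added after the results were seen, the medians of the classes were -0.01 for UBE2 and -0.03 for USP and HERC. With transcript length in place of coding length they were -0.10 and -0.03. The 3 tested UBE2 pseudogenes, which enter the UBE2 medians, have no coding sequence, so the coding length setting removed no trend from them. After removal of the coding length trend, 5296 of all 13778 tested genes passed, 41.3% of those as higher. Of the 35 UBE2 symbols, 8 passed as lower and 6 as higher. Those that kept their falls included UBE2S, UBE2N, UBE2L3, UBE2E1, UBE2J1, UBE2L6 and UBE2Q1, and UBE2D1, UBE2D2, UBE2F, UBE2G1, UBE2K, UBE2M, UBE2T and UBE2V2 did not. Of the 52 USP and HERC genes, 15 passed as lower and 5 as higher, in the setting where 5296 of all 13778 tested genes passed. The falls then included genes that did not pass before, USP38 (-0.25), USP47 (-0.28), USP8 (-0.14), USP32 (-0.24), USP11 (-0.22), USP7 (-0.11), USP24 (-0.14) and USP19 (-0.19). Among the rises, USP30 (0.26) had not passed before. HERC2 turned to -0.06 and UBE2O to 0.02, while HERC1, USP49, USP35 and USP36 still rose.

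**Figure D4:**
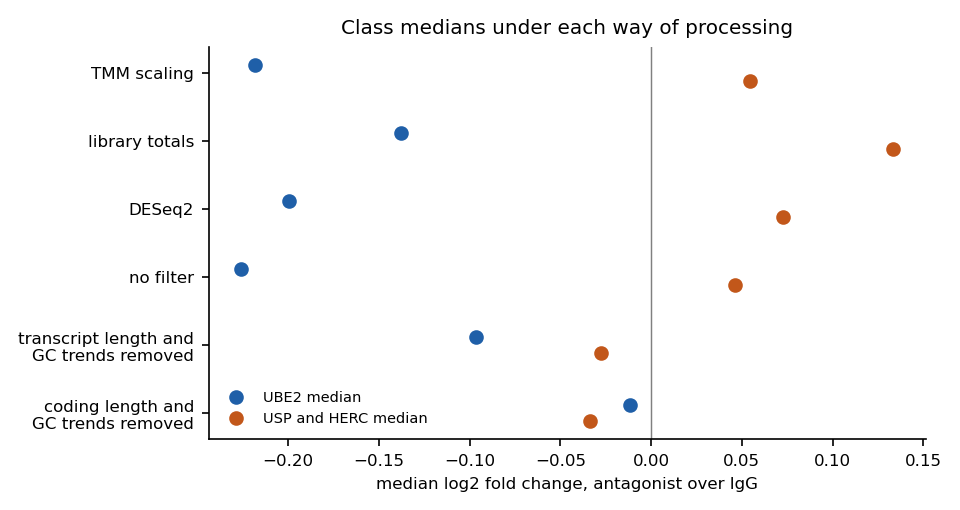
Median log2 fold change, antagonist over IgG, of 35 tested UBE2 symbols (blue) and of the 52 tested USP and HERC genes (orange) under 6 ways of processing the same counts. The medians lie at -0.22 and 0.05 with TMM scaling and at -0.01 and -0.03 after coding length and GC trends were removed.

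Of the 33 members past the threshold, 14 kept their call under all 11 alternatives, which changed scaling, tool, filter, trends or the libraries used. They were the falls of UBE2S, UBE2N, UBE2L3, UBE2E1, UBE2J1, UBE2L6 and USP1 and the rises of UBE2G2, UBE2V1, UBE2Q2P1, USP49, USP35, USP36 and HERC1. For the pseudogene UBE2Q2P1, which has no coding sequence, the coding length setting removed no trend and could not test the rise.

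Other parts of the ubiquitin system were counted in the same fit, in which 20.5% of all tested genes fell and 15.6% rose. Of 11 genes of ubiquitin and its relatives, 10 fell and 0 rose, both by edgeR and at an unadjusted p of 0.05, and DESeq2 called 8 lower and 0 higher. FAU, a ubiquitin-like sequence fused to a ribosomal protein, averaged 241 ± 9.3 CPM with the antagonist and 343 ± 34 CPM with IgG (SD, n = 3 each; -0.51 ± 0.07, SE, adjusted p = 0.000424), and the polyubiquitin gene UBB had -0.41 ± 0.06. Of 9 E1 genes, 3 fell and 1 rose (33.3% and 11.1%). Both subunits of the SUMO E1 were lower, SAE1 at -0.29 ± 0.06 and UBA2 at -0.33 ± 0.07, and UBA7, the E1 of ISG15, was higher at 0.35 ± 0.07. Among 8 E2-like genes outside the UBE2 names, 4 fell, among them ATG3 of autophagy (-0.40 ± 0.06) and UFC1 of the UFM1 pathway (-0.37 ± 0.06), and 1 rose, the giant E2 and E3 hybrid BIRC6 (0.35 ± 0.06). The 4 falls became 2 without antagonist library 2 or 3.

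Of 30 APC/C and cullin ligase genes, 16 fell and 4 rose (53.3% and 13.3%, beside 20.5% and 15.6% of all tested genes). ELOB, an adaptor of cullin ligases (-0.50 ± 0.07), and ANAPC15 of the APC/C (-0.96 ± 0.17) fell, and ANAPC2, its cullin-like subunit, rose (0.42 ± 0.07). The falls numbered 10 without antagonist library 3, and the rises 2 without antagonist library 1. Of 29 deubiquitinases of other families, 4 fell and 3 rose (13.8% and 10.3%, both below the shares of all tested genes). OTUD3 rose (0.65 ± 0.07), while 2 proteasome-bound proteases, PSMD14 (-0.41 ± 0.07) and UCHL5 (-0.32 ± 0.07), fell. The rises numbered 1 without antagonist library 2 and 6 without IgG library 1. Of 25 large HECT and RING ligases, 7 rose and 0 fell by edgeR and by DESeq2, and 8 were higher and 0 lower at an unadjusted p of 0.05. HECTD4 (0.86 ± 0.09), RNF213 (0.53 ± 0.06) and UBR4 (0.50 ± 0.06) led them. After the coding length and GC trends were removed, 5296 of all 13778 tested genes passed, 41.3% of those as higher. In that setting 2 of these 25 ligases rose and 4 fell, 1 of the 11 ubiquitin genes rose, and 5 of the E1 genes fell. There 2 of the APC/C and cullin genes and 8 of the other deubiquitinases rose, and BIRC6 no longer passed. With library totals, 4618 of all 13778 tested genes passed, 65.4% of those as higher. There 8 of the 29 other deubiquitinases rose and 2 of the 8 E2-like genes fell.

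In the agonist experiment, USP7 and USP39 were lower than with IgG. The table of that experiment lists genes of which 99.9% passed the test, 44.2% as lower, so a call describes how the table was made and supports nothing further, and CPM there are shares of the listed counts. USP7, which stabilises p53 and its ligase MDM2, had 746, 830 and 846 CPM in agonist libraries and 1012, 1024 and 1010 CPM in IgG libraries (-0.33 ± 0.06). Agonist library 1, which stood apart, was lowest, and without it the value was -0.28. USP39 had 418, 461 and 487 CPM in agonist libraries and 553, 592 and 571 CPM in IgG libraries (-0.33 ± 0.07, and -0.27 without agonist library 1). In the antagonist experiment USP7 had 130, 134 and 135 CPM in antagonist libraries and 136, 137 and 131 CPM in IgG libraries, with overlapping groups (-0.02 ± 0.05, adjusted p = 0.818).

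An interaction of set and treatment was tested over 901 shared genes, of which 58.8% passed. For USP7 the agonist effect minus the antagonist effect was -0.37 ± 0.08 (adjusted p = 0.00106), and for USP39 it was -0.15 ± 0.09 (adjusted p = 0.168). Each set was scaled on these shared genes alone, so that the difference is not exactly that of the values above, its zero point is uncertain because the genes of set 2 were selected, and a difference that passes in genes selected this way is a description of the tables.

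**Figure D5:**
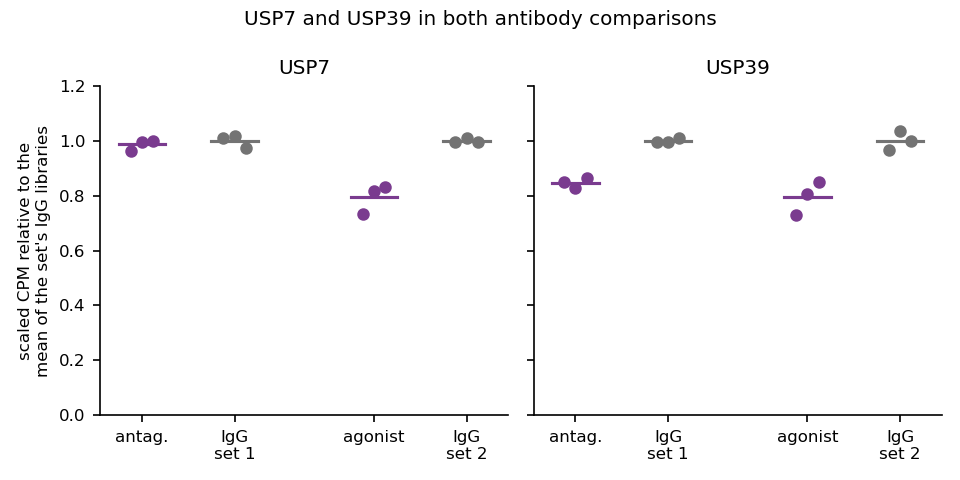
CPM of USP7 (left) and USP39 (right) relative to the mean of the IgG libraries of the same set, with the antagonist left of its IgG group and the agonist left of its own; points are libraries and lines group means. USP7 overlaps IgG with the antagonist and lies below it with the agonist, while USP39 lies below IgG in both.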

How the data were processed

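Gene expression was measured by RNA sequencing of U937 cells in 12 libraries. The authors deposited whole-number read counts per gene, not normalized, in 1 table per set. Per the submitters' processing notes, HISAT2, Cufflinks and build hg38 were used; their versions, the annotation, the counting program and whether strand was used are given in no source used here. The column names give a group and no replicate number. Rows without a symbol, 0.0678% to 0.105% of counts per set 1 library, stayed out.

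The test was edgeR's (version 4.0.16, R 4.3.3) with filterByExpr, TMM scaling, robust quasi-likelihood test within each set, Benjamini-Hochberg adjustment over all tested genes, threshold 0.05. Printed SE were derived from the fold change and F statistic. CPM are TMM-scaled, except the marker sums, which are per library total. DESeq2 1.42.0, library totals, no filter, each library left out and removal of length and GC trends were alternatives. Transcript and coding lengths are the longest in GENCODE v29 (GRCh38), where 25121 symbols matched by name and 885 by gene ID, of 27827. Windows of 50 bases were compared between transcripts. Scripts were tested on simulated data. The members, the gene lists and the alternatives were chosen with earlier results of these data known. Named genes were the leading changes of each class, a set of well-known members whatever their result, members in the agonist table, extremes of level, and up to 3 passing genes per other list; UBE2Q2P1, UBE2V1's readthrough and USP43 were named after their values were seen. Levels per kilobase were used for extremes. A few genes that these rules would name, 1 UBE2 gene among them, enter the counts and medians but are not reported here.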

Additional observations from a re-analysis of the deposited data

Results flagged for a closer look

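For USP7 the interaction of set and treatment passed the threshold, as it did for 58.8% of the 901 shared genes, and 99.9% of the genes listed for the agonist passed the agonist test itself. The value is therefore given as a description. Its agonist effect minus its antagonist effect was -0.37 on the log2 scale with TMM scaling and -0.43 with column totals in place of TMM. All 3 agonist libraries lay below all 3 IgG libraries of set 2, and the antagonist libraries overlapped the IgG libraries of set 1. The part that the selection of genes for set 2 has in this value was not tested.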

How the results depend on the processing

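No paired analysis was possible because the table columns carry no replicate numbers. Library totals in place of TMM moved the median of all genes from -0.01 to 0.07 and their falls from 2831 to 1597. The UBE2 median was then -0.14, the USP and HERC median 0.13 and the USP and HERC falls 1. With transcript length and GC trends removed, 5520 of all 13778 tested genes passed, 36.5% of those as higher. The medians there were -0.10 and -0.027 and the USP and HERC falls 13, and USP22 and USP19 turned to -0.12. With coding length and GC trends removed, the medians were -0.012 and -0.034, UBE2 falls 8 and USP and HERC falls 15. Of all 13778 tested genes, 5296 passed in that setting, 41.3% of those as higher. There UBE2D3 turned to 0.11, USP24 to -0.14, USP19 to -0.19 and HERC2 to -0.062. Members with little shared sequence gave 2 UBE2 rises and a USP and HERC median of 0.018, and members of at least 10 CPM a median of 0.029. The cause of these shifts was not tested. Leaving out each library in turn gave 10 to 17 UBE2 falls, 3 to 6 USP and HERC falls, UBE2 medians from -0.25 to -0.15 and USP and HERC medians from -0.00542 (without antagonist library 2) to 0.074. DESeq2 changed the call of 2 of 87 members and no filter that of 3. Depth limits the weakly counted genes, such as USP6 near 1 CPM with an SE of 0.32, and the smallest fold change that passed among the 87 members was -0.20 (USP4).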
